A study of Mus musculus with 24 samples.

Results

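The 6 genes described here encode the PSD-95 family of synaptic scaffolds (Dlg1, Dlg2, Dlg3 and Dlg4) and 2 proteins of the nitric oxide arm that docks on it, neuronal nitric oxide synthase (Nos1) and its adaptor (Nos1ap). They were chosen by gene symbol from the 45706 genes of the deposited gene table, together with their 62 rows among the 109617 transcripts of the transcript table. Dlg4 encodes PSD-95, the protein after which one of the treatments is named. Whole hypothalamus was taken from mice with diet-induced obesity, with a mean body weight of 53 g, and its polyadenylated RNA was sequenced. The PSD-95i group received UCCB01-147 at 25 mg/kg, the PICK1i group received mPD5 at 56 mg/kg, and the saline group received isotonic saline. Each mouse had 1 injection a day for 5 days and was killed 2 hours after the last one. No strain, age or genetic change is given for any group, and all 3 groups were obese, so there is no lean reference. The labels give 8 libraries to each of the 3 groups, while the protocol counts 6 saline mice. Since the labels do not say that each library came from its own mouse, p-values measure the spread between these libraries, which may be technical in part.

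PSD-95 and its relatives SAP97 (Dlg1), PSD-93 (Dlg2) and SAP102 (Dlg3) are membrane-associated guanylate kinases. Their PDZ domains hold NMDA-type glutamate receptors, potassium channels and adhesion proteins at the postsynaptic membrane. Neuronal nitric oxide synthase binds PSD-95 through a PDZ interaction, which keeps the enzyme close to the calcium that enters through NMDA receptors, and Nos1ap competes for that contact. In the hypothalamus nitric oxide neurons are known for their part in feeding and reproductive control.

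The main transcripts of the scaffolds differ at the start of the protein, and the first 20 codons are shown because a cysteine pair near the start of PSD-95 is the known site of the palmitoylation that anchors it to the membrane. Capitals mark the start codon and every cysteine codon, read 5′ to 3′ from the GENCODE M21 annotation on GRCm38.
Dlg4-203 (chromosome 11): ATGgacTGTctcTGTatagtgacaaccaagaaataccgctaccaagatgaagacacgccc
Dlg4-204 (chromosome 11): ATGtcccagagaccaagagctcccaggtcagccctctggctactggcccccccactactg
Dlg4-201 (chromosome 11): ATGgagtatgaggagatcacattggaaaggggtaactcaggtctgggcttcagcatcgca
Dlg2-204 (chromosome 7): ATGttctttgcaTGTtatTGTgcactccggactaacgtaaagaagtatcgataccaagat
Dlg3-201 (chromosome X): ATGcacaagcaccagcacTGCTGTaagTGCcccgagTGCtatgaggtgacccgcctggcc
Dlg1-201 (chromosome 16): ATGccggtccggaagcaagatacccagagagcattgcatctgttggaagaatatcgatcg
Dlg4-203 carries cysteine at codons 3 and 5, and Dlg2-204 at codons 5 and 7. Dlg3-201 has 4 cysteine codons, of which codons 7 and 8 are adjacent. The 20 codons of Dlg4-201, Dlg4-204 and Dlg1-201 hold none. The 664 codons of Dlg4-201 are the last 664 of both longer Dlg4 forms, since Dlg4-204 has 103 codons and Dlg4-203 has 60 codons ahead of them.

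All 6 genes are protein-coding. On GRCm38 they lie at chr11:70016942-70047522 (Dlg4), chr16:31663443-31875129 (Dlg1), chr7:90476672-92449247 (Dlg2), chrX:100767722-100818410 (Dlg3) and chr5:117781032-117958840 (Nos1), all on the plus strand, and at chr1:170302668-170589861 on the minus strand (Nos1ap). No other annotated gene overlaps Dlg4 or Dlg3. Overlapping genes number 4 for Dlg1, 30 for Dlg2 and 2 each for Nos1 and Nos1ap, and whether strand was used in counting is not given in the sources used here, so reads of these 4 genes may include some from their neighbours.

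Library totals ran between 4762703 and 9228858 estimated counts, with a median of 7628245. The 15 hypothalamic neuron markers were detected in every group, with summed levels of 1205 to 1707 CPM (counts scaled to the library total) in PSD-95i libraries, 1354 to 1813 CPM in PICK1i libraries and 899 to 1746 CPM in saline libraries. Where CPM of single genes are given below, the scaling factors of the fit were applied as well. A few libraries stood apart in ways the treatments do not name. Saline replicates 2 and 3 held anterior pituitary transcripts (up to 76864 CPM summed over 9 markers, against at most 189 CPM in PSD-95i libraries and 207 CPM in PICK1i libraries) and the lowest neuron marker levels, 0.58 and 0.37 below the mean of all libraries on the log2 scale. Their glial markers were low as well, with 976 and 1058 CPM for astrocytes and 2814 and 3692 CPM for oligodendrocytes, against at least 1481 and 5038 CPM in the other 6 saline libraries. PICK1i replicates 1, 2, 5 and 6 had 13.5% to 16.6% mitochondrial counts, against 8.70% to 11.2% in PICK1i replicates 3, 4, 7 and 8. Their oligodendrocyte markers summed to 6317 to 9323 CPM, against 5023 to 7429 CPM in PICK1i replicates 3, 4, 7 and 8. They also had a negative length tilt, the slope of a library's log2 deviations on log2 transcript length, at -0.17 to -0.10 against -0.02 to 0.07 in PICK1i replicates 3, 4, 7 and 8. PICK1i replicate 6 in addition had cortex and hippocampus markers at 868 CPM, against at most 223 CPM in PSD-95i libraries and 383 CPM in saline libraries. Fold changes of the 6 genes are therefore also given without these 6 libraries.

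Dlg4 was by far the most abundant of the 6 genes. Per transcript length, its level had a median of 261.9 counts per kilobase of transcript, scaled to CPM, over all 24 libraries. Dlg1 followed at 20.8, Dlg3 at 18.5, Nos1 at 14.9, Dlg2 at 11.6 and Nos1ap at 10.5, in the same unit. The ratio of the medians of Dlg4 and Dlg1 was 12.6, and the lowest Dlg4 library (200.5) lay far above the highest Dlg1 library (22.7). Dlg1 exceeded Dlg3 within every one of the 24 libraries, although their ranges over libraries overlapped. Each of the remaining neighbours in the order (Dlg3 above Nos1, Nos1 above Dlg2, Dlg2 above Nos1ap) kept it in 23 of 24 libraries, with overlapping ranges, so among these 5 genes the order is clearer within a library than across libraries. In CPM, not divided by length, Dlg4 ranked 135 of the 15667 genes tested.

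**Figure D1:**
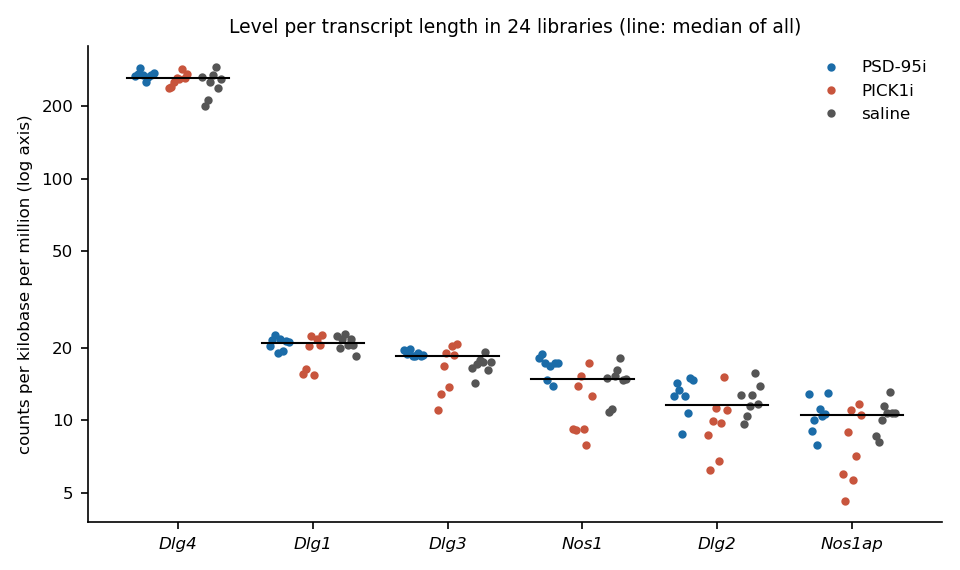
Level of each gene in counts per kilobase of annotated transcript, scaled by library size (log axis), 1 point per library, by treatment. Dlg4 has a median of 267.9 in PSD-95i, 259.4 in PICK1i and 254.3 in saline libraries. It lies between 200.5 and 289.3, and the other 5 genes lie between 4.66 and 22.7.

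None of the 6 genes passed the threshold in any of the 3 comparisons (edgeR's quasi-likelihood test with Benjamini-Hochberg adjustment over all genes tested, adjusted p under 0.05). Of all genes tested, 0% were called in PSD-95i libraries set against saline, 9.15% in PICK1i libraries set against saline (4.88% higher and 4.27% lower) and 0% between the inhibitors. The unadjusted p was under 0.05 for 1719, 4509 and 3789 genes in those 3 comparisons, and DESeq2 called 0, 1964 and 1260 genes. The comparisons share their libraries in pairs, so their values are given side by side and not as separate evidence. In bulk tissue, fewer cells of a type and less RNA per cell cannot be told apart.

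Dlg4 had a lowest, median and highest library of 581, 619 and 663 CPM in the PSD-95i group, 589, 631 and 748 CPM in the PICK1i group and 454, 585 and 668 CPM in the saline group. The 2 lowest saline libraries were replicates 2 and 3, the highest PICK1i library was replicate 6, and all 3 ranges overlapped. For the gene of the drug's own target, the log2 fold change of PSD-95i over saline was 0.11 ± 0.07 (SE; 95% interval -0.03 to 0.24; edgeR adjusted p = 0.540), with 7 of 8 PSD-95i libraries above the saline median. PICK1i over saline gave 0.15 ± 0.07 (interval 0.02 to 0.29; adjusted p = 0.129), with 8 of 8 libraries above that median. PSD-95i over PICK1i gave -0.05 ± 0.07 (interval -0.18 to 0.09; adjusted p = 0.716). Without saline replicates 2 and 3 the first was 0.03 and the second 0.07. Without all 6 libraries they were 0.03 and 0.00069, and PSD-95i over PICK1i was 0.03, with its sign changed. The interval for PSD-95i over saline spans 0.980-fold to 1.18-fold.

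**Figure D2:**
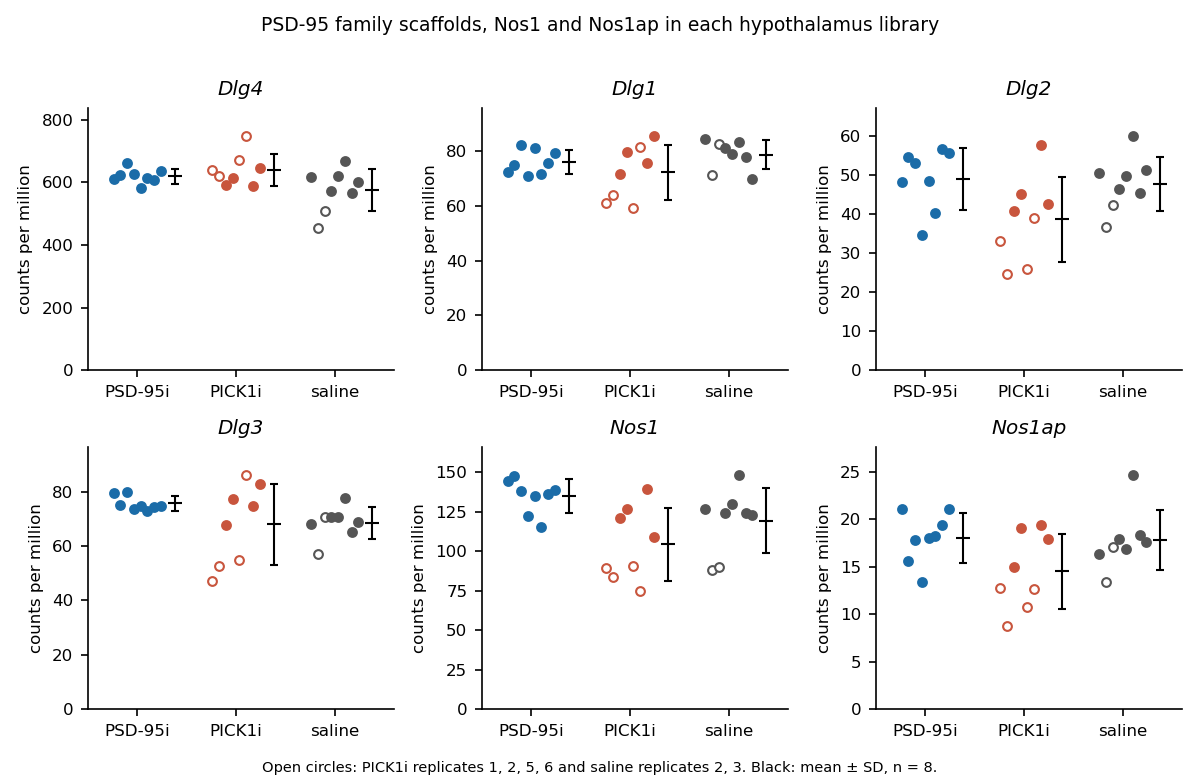
CPM of the 6 genes in each library (circles) with the mean and SD of each group of 8. Open circles are PICK1i replicates 1, 2, 5 and 6 and saline replicates 2 and 3. The open PICK1i circles are the 4 lowest of their group for Nos1, Dlg2 and Nos1ap, and the open saline circles are the lowest of theirs for Dlg4, Nos1 and Dlg2.

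The other scaffolds showed the same overlap. Dlg1, whose product SAP97 carries AMPA receptor subunits and potassium channels, had lowest, median and highest libraries of 71.0, 75.4 and 82.5 CPM in PSD-95i, 59.3, 73.8 and 85.7 CPM in PICK1i and 70.1, 80.3 and 84.6 CPM in saline libraries. Its log2 fold changes were -0.05 ± 0.07 for PSD-95i over saline, -0.12 ± 0.07 for PICK1i over saline and 0.07 ± 0.07 for PSD-95i over PICK1i (SE; edgeR adjusted p = 0.804, 0.246 and 0.555). The 3 lowest Dlg1 libraries of the study were PICK1i replicates 1, 2 and 5. The same fold changes were -0.06, -0.03 and -0.04 without the 6 libraries, so the last changed sign.

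Dlg2, which encodes PSD-93, varied more among libraries. Its lowest, median and highest libraries had 34.5, 50.7 and 56.7 CPM in PSD-95i, 24.6, 39.9 and 57.7 CPM in PICK1i and 36.6, 48.0 and 59.9 CPM in saline. PICK1i libraries lay lower on average (38.6 ± 10.8 CPM, SD, n = 8) than PSD-95i (48.9 ± 7.90 CPM) and saline libraries (47.7 ± 6.92 CPM). The log2 fold change was 0.04 ± 0.13 for PSD-95i over saline, -0.29 ± 0.14 for PICK1i over saline and 0.33 ± 0.14 for PSD-95i over PICK1i (edgeR adjusted p = 0.934, 0.155 and 0.137). Within the PICK1i group Dlg2 stood at 24.6 to 39.0 CPM in replicates 1, 2, 5 and 6 and at 40.8 to 57.7 CPM in replicates 3, 4, 7 and 8. Saline replicates 2 and 3 had 36.6 and 42.2 CPM, against 45.3 to 59.9 CPM in the other 6 saline libraries. The same fold changes were -0.04, -0.11 and 0.07 without the 6 libraries, none of them called.

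Dlg3, the X-linked gene of SAP102, was the tightest member under PSD-95i. It had 72.8, 74.8 and 80.0 CPM as lowest, median and highest library in the PSD-95i group, 47.2, 71.2 and 86.2 CPM in the PICK1i group and 57.0, 69.6 and 77.8 CPM in the saline group. All 8 PSD-95i libraries lay above the saline median, yet the ranges overlapped and the log2 fold change of 0.14 ± 0.09 did not pass (edgeR adjusted p = 0.563). It was 0.11 ± 0.05 without the 6 libraries (adjusted p = 0.963). PICK1i over saline was -0.01 ± 0.09 (adjusted p = 0.951) and PSD-95i over PICK1i 0.15 ± 0.09 (adjusted p = 0.318). These were 0.10, with its sign changed, and 0.0016 without the 6 libraries. The coefficient of variation was 3.58% in PSD-95i, 21.7% in PICK1i and 8.61% in saline libraries.

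Nos1, the enzyme that makes nitric oxide in neurons, showed the largest fitted difference among the 6 genes and 3 comparisons. Its lowest, median and highest libraries had 116, 137 and 148 CPM in the PSD-95i group, 75.1, 99.97 and 139 CPM in the PICK1i group and 88.0, 124 and 149 CPM in the saline group. Every PSD-95i library lay above the PICK1i median, but the ranges overlapped. The log2 fold change of PSD-95i over PICK1i was 0.36 ± 0.11 (SE; 95% interval 0.13 to 0.59; edgeR adjusted p = 0.0664), that of PSD-95i over saline 0.18 ± 0.11 (adjusted p = 0.554) and that of PICK1i over saline -0.19 ± 0.11 (adjusted p = 0.275). DESeq2 called the first of these with an adjusted p of 0.0285. The same 6 libraries were low: Nos1 had 75.1 to 90.8 CPM in PICK1i replicates 1, 2, 5 and 6 and 88.0 and 89.9 CPM in saline replicates 2 and 3. It had 109 to 139 CPM in PICK1i replicates 3, 4, 7 and 8 and 123 to 149 CPM in the other 6 saline libraries. Without the 6 libraries PSD-95i over PICK1i was 0.12 ± 0.07 (adjusted p = 0.814), PSD-95i over saline 0.06 and PICK1i over saline -0.06. Without PICK1i replicates 1, 2, 5 and 6 alone, PICK1i over saline was 0.055, the opposite sign. Without saline replicates 2 and 3 alone, PSD-95i over PICK1i stayed at 0.36 and passed (adjusted p = 0.0344). These saline libraries are in neither group of that comparison and act only through the shared fit, so an unchanged value says little.

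Nos1ap, the adaptor that binds the PDZ domain of the enzyme, was the least abundant member and was counted with 57 to 181 estimated counts a library. It had lowest, median and highest libraries of 13.4, 18.1 and 21.1 CPM in the PSD-95i group, 8.75, 13.9 and 19.4 CPM in the PICK1i group and 13.4, 17.3 and 24.7 CPM in the saline group. The PICK1i libraries reached lower than the others, with overlap, and the 4 lowest of them were replicates 1, 2, 5 and 6. Its log2 fold changes were 0.03 ± 0.14, -0.27 ± 0.14 and 0.30 ± 0.14 for PSD-95i over saline, PICK1i over saline and PSD-95i over PICK1i (edgeR adjusted p = 0.948, 0.197 and 0.182). Without the 6 libraries they were -0.03, -0.06 and 0.03. Without PICK1i replicates 1, 2, 5 and 6 alone, PICK1i over saline was 0.0067, with its sign changed.

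**Figure D3:**
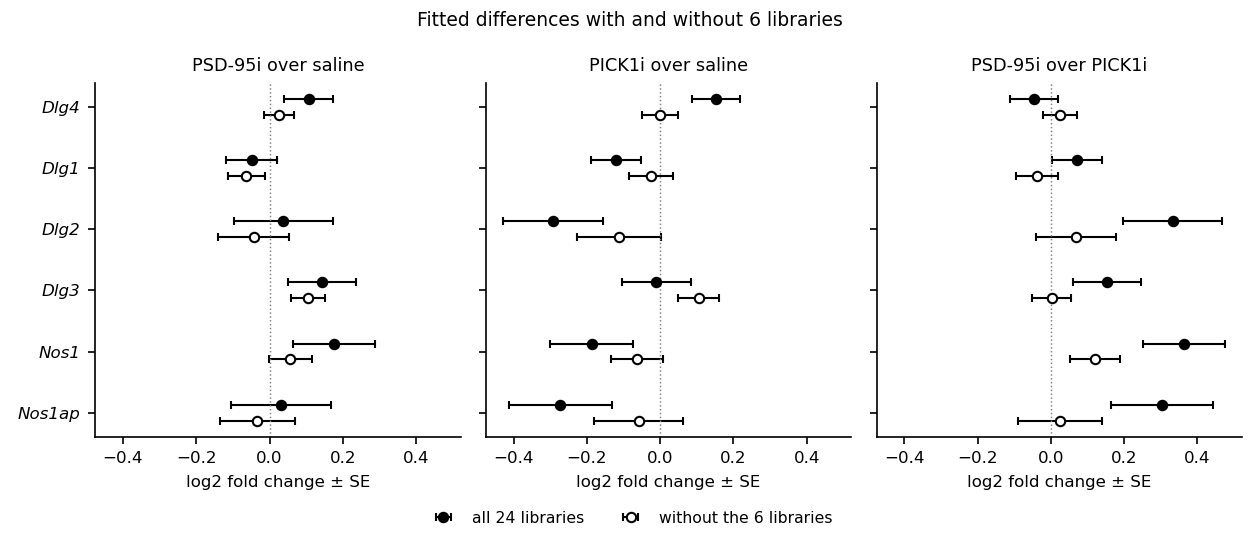
Fitted log2 fold changes (points) with their SE (bars) from all 24 libraries and from the 18 that remain without PICK1i replicates 1, 2, 5 and 6 and saline replicates 2 and 3. With 18 libraries the Nos1 difference of PSD-95i over PICK1i moves to 0.12, against 0.36 with all 24.

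The position of a PICK1i library on Nos1, Dlg2 and Nos1ap went with its length tilt, while Dlg4 in CPM did not lie low in the same libraries. The most counted transcript has 10123 bases for Nos1, 3218 for Dlg2, 3022 for Nos1ap and 2708 for Dlg4. The count-weighted length over all transcripts was 9174 bases for Nos1 and 4659 for Dlg2, both above that of Dlg4 (2791 bases). That of Nos1ap (2345 bases) was below it. In PICK1i replicates 1, 2, 5 and 6 Dlg4 stood at 620 to 748 CPM, against 589 to 645 CPM in replicates 3, 4, 7 and 8. Per length, with each library scaled by its total alone, replicates 1 and 2 instead had the lowest Dlg4 levels of the group, 237.6 and 240.6. Replicates 5 and 6 had 258.6 and 283.1, against 250.3 to 270.0 in replicates 3, 4, 7 and 8. CPM of single genes also use the scaling factors of the fit, so these measures differ in scaling as well as in length. With the length tilt as a covariate in the fit, the log2 fold change of PSD-95i over PICK1i was 0.05 for Nos1, -0.04 for Dlg2 and -0.06 for Nos1ap. The part of transcript length, RNA quality or dissection in these values was not tested further.

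**Figure D4:**
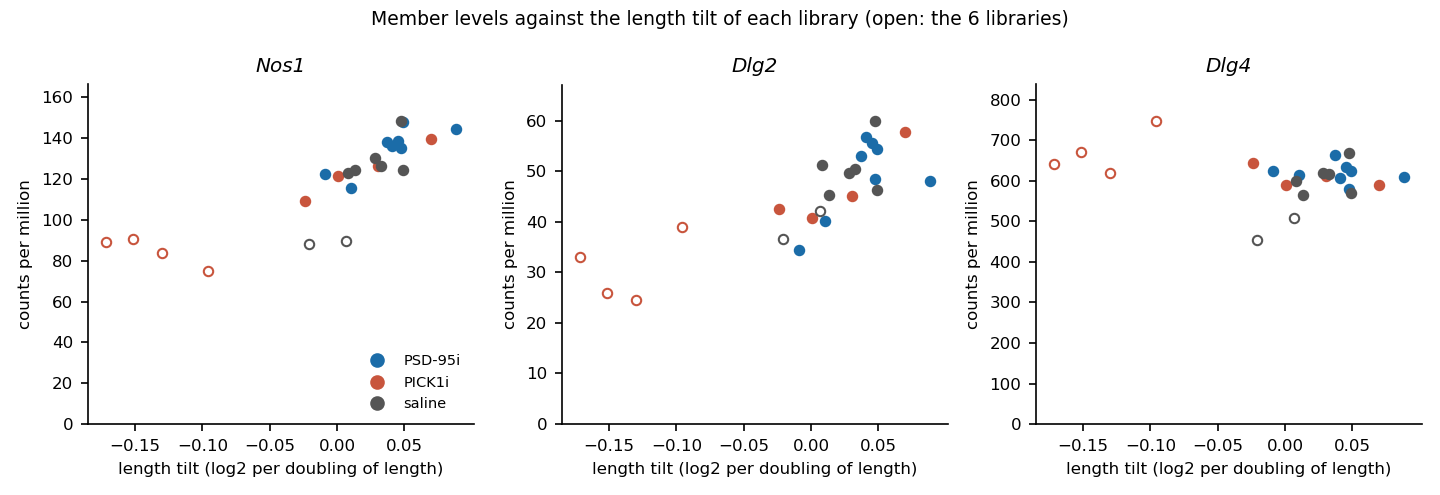
CPM of Nos1, Dlg2 and Dlg4 in each library against the length tilt of that library. The 4 open PICK1i points have tilts of -0.17 to -0.10 and lie low for Nos1 and Dlg2 but at 620 to 748 CPM for Dlg4. The 2 open saline points have tilts near 0 and are the lowest of their group for Nos1, Dlg2 and Dlg4.

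The spread between libraries of a group differed among the members. The within-group SD on the log2 CPM scale was 0.13 for Dlg4, 0.14 for Dlg1, 0.20 for Dlg3, 0.25 for Nos1, 0.30 for Nos1ap and 0.30 for Dlg2. Among genes of like level (within 0.5 on the log2 scale), 96.2% of 2917 genes had a smaller SD than Dlg2 and 93.7% of 1609 genes had a smaller SD than Nos1. For Dlg4 this was 24.2% of 148 genes and for Dlg1 44.5% of 2240 genes, so the target gene was among the steadier of its level. These SD include the 6 libraries that stood apart. The coefficient of variation of Nos1 was 8.00% in PSD-95i, 22.1% in PICK1i and 17.2% in saline libraries. That of Dlg2 was 16.2%, 28.0% and 14.5% in the same order.

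Most Dlg4 counts were assigned to the form that lacks the cysteine start. Over all libraries Dlg4-201 took 62.6% of the gene's count, Dlg4-204 took 19.8% and Dlg4-203, the form with cysteine codons 3 and 5, took 10.3%. These forms begin at different first exons, at chr11:70029525-70029708 for Dlg4-201, chr11:70016942-70017233 for Dlg4-204 and chr11:70018444-70018949 for Dlg4-203. Reads were 52 bases long, and no 52-base stretch of Dlg4-204 is found in it alone among the annotated transcripts. For Dlg4-201 and Dlg4-203, 6.85% and 12.1% of such stretches are their own. Shares are therefore estimates that rest on the program's model.

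The one share that passed its test was Dlg4-204 under PSD-95i. Its lowest, median and highest shares of the Dlg4 count were 19.9%, 20.6% and 21.5% in PSD-95i libraries, 15.9%, 20.3% and 21.2% in PICK1i libraries and 18.8%, 19.2% and 20.2% in saline libraries. All 8 PSD-95i libraries lay above the saline median, with an overlap of the ranges at their edge. Means were 20.6% ± 0.518 in PSD-95i and 19.4% ± 0.559 in saline libraries (SD, n = 8 each), a difference of 1.25 percentage points (two-sided exact permutation test over 12870 splits, p = 0.000777, and 0.0420 adjusted over 54 tests of shares). Without saline replicates 2 and 3 the difference was 1.09 points with an adjusted exact p of 0.0979, and it passed in 3 of the 16 fits that each left out 1 of its libraries. In PICK1i replicates 3, 4, 7 and 8 the share stood at 20.3% to 21.2%, while replicates 1 and 2 had the lowest shares of the study, 16.4% and 15.9%.

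The other Dlg4 forms did not pass. Dlg4-201 held 61.2% ± 1.22 of the count in PSD-95i, 65.0% ± 4.68 in PICK1i and 62.3% ± 1.08 in saline libraries (SD, n = 8). The adjusted exact permutation p was 0.241 (PSD-95i over saline), 0.406 (PICK1i over saline) and 0.217 (PSD-95i over PICK1i). Its highest shares were 69.1% to 72.1%, in PICK1i replicates 1, 2 and 5. Dlg4-203, the form with the cysteine pair, held 10.6% ± 0.969, 9.56% ± 2.06 and 10.7% ± 1.15 in PSD-95i, PICK1i and saline libraries, with adjusted exact p of 0.897 for PSD-95i against saline and 0.454 for PICK1i against saline.

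**Figure D5:**
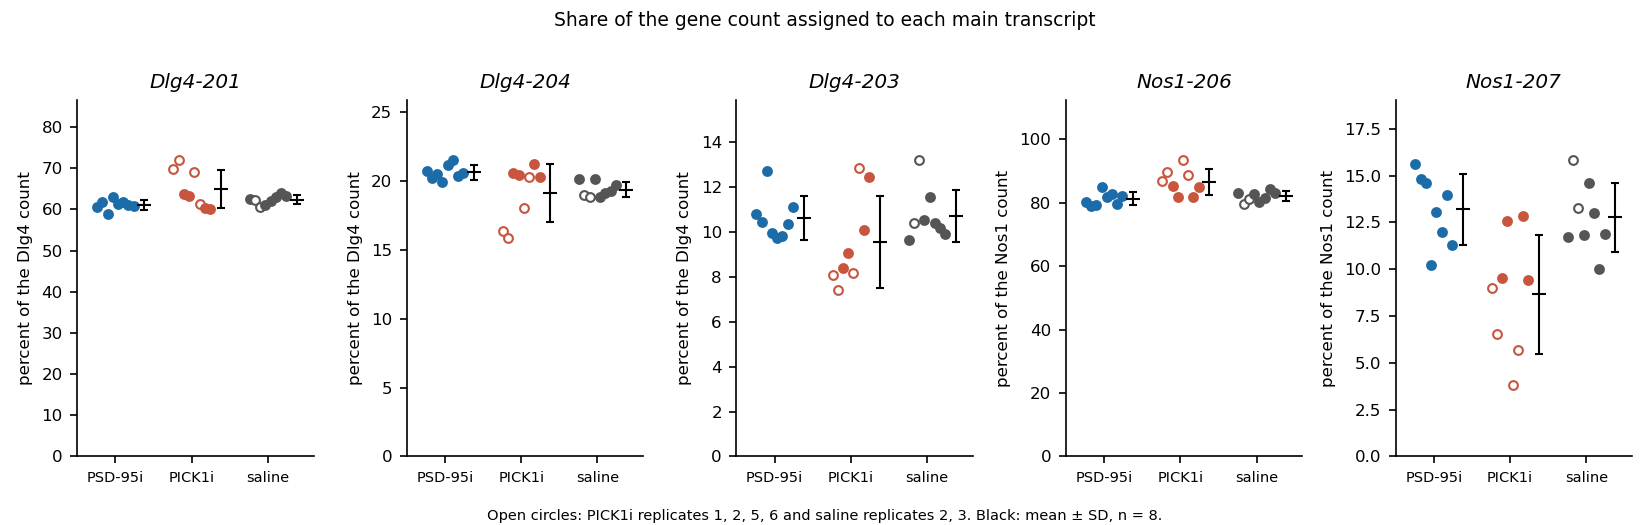
Percent of the gene's estimated count assigned to the main Dlg4 and Nos1 transcripts in each library, with the mean and SD of each group of 8 and the same open circles as in the plot of the 6 genes by library. PSD-95i libraries have a Dlg4-204 share of 19.9% to 21.5%, and the open PICK1i circles hold the 4 lowest Nos1-207 shares of the study.

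Of the 7 Nos1 transcripts with counts, 2 held at least 10% of the gene's count each. These have the same 1429-codon coding sequence, so they differ outside the protein. Nos1-206 took 82.7% and Nos1-207, which is annotated with no 3′ untranslated region, took 12.1% of the count over all libraries, and a form annotated as subject to nonsense-mediated decay took 4.13%. No 52-base stretch of Nos1-207 is found in it alone among the Nos1 transcripts, while 47.8% of those of Nos1-206 are its own. The share and fold change of Nos1-207 therefore rest on the program's model. The Nos1-207 share had lowest, median and highest values of 10.2%, 13.5% and 15.6% in PSD-95i, 3.81%, 9.19% and 12.8% in PICK1i and 10.01%, 12.4% and 15.8% in saline libraries. PICK1i libraries reached lowest, again with overlap. The difference of PSD-95i over PICK1i was 4.54 percentage points and that of PICK1i over saline -4.11 points (two-sided exact permutation p = 0.00451 and 0.00777, adjusted p = 0.0839 for each). Without PICK1i replicates 1, 2, 5 and 6 these differences were 2.13 and -1.70 points (adjusted p = 0.798 for each). As transcripts, 0 of the 37 tested forms of the 6 genes passed in any comparison (edgeR adjusted p). Over all 37955 transcripts 0% were called with PSD-95i over saline, 2% with PICK1i over saline (0.977% higher and 1.02% lower) and 0% between the inhibitors. The unadjusted p was under 0.05 for 2, 9 and 11 of the 37 in the same comparisons. The smallest belonged to Nos1-207, with a log2 fold change of 0.85 ± 0.22 for PSD-95i over PICK1i (edgeR adjusted p = 0.0714).

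Part of the Dlg3, Dlg2 and Nos1ap counts was assigned to transcripts with no annotated coding sequence. Processed transcripts and retained-intron forms took 38.7% and 16.3% of the Dlg3 count and 34.1% and 7.62% of the Dlg2 count. For Nos1ap they took 18.5% and 36.3%. The largest single share of Dlg3 belonged to such a processed transcript, Dlg3-208, at 38.6% over all libraries. For Dlg2 it was Dlg2-208, at 33.1%. Dlg3-208 held 36.5% ± 2.31 of the Dlg3 count in PSD-95i and 40.0% ± 2.44 in saline libraries (SD, n = 8 each; difference -3.51 percentage points, exact permutation p = 0.0112, adjusted p = 0.101, and -3.35 points without saline replicates 2 and 3). Dlg1 was divided among 3 coding forms, Dlg1-201 with 33.5%, Dlg1-204 with 28.8% and Dlg1-206 with 24.6%. No 52-base stretch of Dlg1-201 is its own, so its share rests on the program's model as well. In coding sequence Dlg1-206 equals Dlg1-201 apart from a stretch of 33 more codons, while its 3′ untranslated region is annotated with 3348 bases, against 903 in Dlg1-201.

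Within the family, PSD-95 transcripts made up most of the level in every group. Dlg4 made up 83.6% ± 0.813 of the summed level per length of Dlg1 to Dlg4 in PSD-95i, 85.0% ± 2.03 in PICK1i and 83.0% ± 1.04 in saline libraries (SD, n = 8). The highest PICK1i shares, 87.0% to 87.8%, were those of replicates 1, 2 and 5, and without the 6 libraries the difference of PICK1i over saline was -0.169 points, against 1.97 points with them. None of the 12 tests of family shares passed after adjustment. The smallest p belonged to the Dlg2 share, at 3.23% ± 0.807 in PICK1i and 4.12% ± 0.271 in saline libraries (difference -0.886 percentage points, exact permutation p = 0.0112, adjusted p = 0.134). Without the 6 libraries that difference was -0.366 points. The smallest p that 8 libraries against 8 allow is 0.000155.

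Genes around the scaffold were followed with 3 lists. The first held 37 partners of PSD-95, such as NMDA receptor subunits, neuroligins, SAPAP and Shank proteins and the enzymes that add and remove palmitate. All 37 were tested, and none passed in PSD-95i libraries against either other group, where 0% of all genes did. For PSD-95i against saline 33 of the 37 fitted log2 fold changes lay above 0, with a median of 0.10, against 49.1% and a median of -0.003 over all genes tested. Without saline replicates 2 and 3, whose neuron and astrocyte markers were low, 22 of the 37 lay above 0, with a median of 0.0099, beside 48.3% of all genes tested. The 2 with the smallest p were Kcnj10, a glial potassium channel (385 ± 24.8 CPM in PSD-95i and 320 ± 43.9 CPM in saline libraries, log2 fold change 0.27 ± 0.09, edgeR adjusted p = 0.356), and Nlgn2, the neuroligin of inhibitory synapses (143 ± 15.7 and 121 ± 11.8 CPM in the same order, 0.25 ± 0.09, adjusted p = 0.362). The fold changes of these 2 genes were 0.16 and 0.22 without the 6 libraries. For PICK1i against saline 1 partner passed in the upward direction, where 4.88% of all genes did. Begain, which binds the guanylate kinase domain of PSD-95, had 223 ± 34.9 CPM in PICK1i and 177 ± 28.1 CPM in saline libraries (log2 fold change 0.33 ± 0.09, adjusted p = 0.0312). For PSD-95i against PICK1i the smallest p were those of Grin2b, an NMDA receptor subunit (138 ± 20.1 and 109 ± 21.1 CPM, 0.33 ± 0.14, adjusted p = 0.133), and Kcnj10 (385 ± 24.8 and 329 ± 57.6 CPM, 0.23 ± 0.09, adjusted p = 0.140). Without the 6 libraries these were 0.18 and 0.09, while without saline replicates 2 and 3 alone Grin2b passed (edgeR adjusted p = 0.0461). Saline libraries act on this comparison only through the shared fit.

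The second list held 29 genes of nitric oxide and cyclic GMP signalling, of which 27 were tested. For PICK1i against saline 4 rose and 1 fell, where 4.88% of all genes rose and 4.27% fell. Dynll1, a dynein light chain that binds the synthase, had 169 ± 20.4 CPM in PICK1i and 135 ± 12.4 CPM in saline libraries (log2 fold change 0.32 ± 0.07, edgeR adjusted p = 0.0181). Nosip, a nitric oxide synthase-interacting protein, Spr, which completes the synthesis of the cofactor tetrahydrobiopterin, and Calm3, a calmodulin gene, were higher by 0.26, 0.24 and 0.22 on the log2 scale (adjusted p = 0.0308, 0.0355 and 0.0387). Prkg1, the cyclic GMP-dependent protein kinase, fell to 7.68 ± 2.84 CPM in PICK1i libraries, against 11.6 ± 1.55 CPM in saline libraries (log2 fold change -0.56 ± 0.17, adjusted p = 0.0419). None passed for PSD-95i against saline, where 0% of all genes did. Its smallest p belonged to Ddah2, which degrades an inhibitor of the synthases (6.85 ± 0.855 and 8.44 ± 1.34 CPM in PSD-95i and saline libraries, log2 fold change -0.30 ± 0.14, adjusted p = 0.433), and Ass1, an enzyme of arginine resynthesis (102 ± 3.96 and 94.0 ± 3.56 CPM, 0.11 ± 0.05, adjusted p = 0.433). For PSD-95i against PICK1i, Dynll1 (-0.28 ± 0.07, adjusted p = 0.0513) and Prkg1 (0.59 ± 0.17, adjusted p = 0.0590) came closest, and both passed with DESeq2, with limma-voom and without saline replicates 2 and 3. Those saline libraries are in neither group compared and act only through the shared fit. With 1 library left out, Dynll1 passed in 4 of 16 fits (edgeR adjusted p from 0.00483 to 0.136). Prkg1 passed in 3 of 16 (adjusted p from 0.0137 to 0.147).

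The third list held 20 other guanylate kinase scaffolds and their partners, of which 19 were tested. For PICK1i against saline 2 rose and 2 fell, where 4.88% of all genes rose and 4.27% fell. Lin7b and Lin7c, small PDZ proteins of the same complex, went opposite ways, with 21.4 ± 4.54 and 58.7 ± 15.3 CPM in PICK1i libraries against 14.9 ± 2.92 and 82.5 ± 20.5 CPM in saline libraries (log2 fold changes 0.51 ± 0.13 and -0.48 ± 0.14, edgeR adjusted p = 0.0219 and 0.0321). Mpp3 rose by 0.30 on the log2 scale (adjusted p = 0.0429). None of the list passed in PSD-95i libraries against either other group, where 0% of all genes did. In PSD-95i against saline the smallest p were those of Tjp3 (1.57 ± 0.536 and 4.93 ± 6.35 CPM, log2 fold change -1.64 ± 0.51, adjusted p = 0.356, and -0.05 without saline replicates 2 and 3) and Magi1 (181 ± 6.81 and 169 ± 13.6 CPM, 0.10 ± 0.06, adjusted p = 0.526). In PSD-95i against PICK1i they were those of Lin7b (-0.35 ± 0.13, adjusted p = 0.0974) and Mpp5 (0.26 ± 0.10, adjusted p = 0.128).

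Over the 3 lists 10 of 83 tested genes (12%) passed for PICK1i against saline, beside 9.15% of all genes. The count was 0 without PICK1i replicates 1, 2, 5 and 6, where 0 of all genes were called, and 0 without saline replicates 2 and 3, where 5 of all genes were called. It was also 0 in a fit of only these 2 groups. Without all 6 libraries the log2 fold changes of PICK1i over saline were 0.0071 for Begain, 0.11 for Dynll1, 0.10 for Nosip, 0.03 for Spr, 0.12 for Calm3, 0.18 for Mpp3, -0.31 for Prkg1, 0.09 for Lin7b and -0.05 for Lin7c, none of them called.

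Genes whose levels followed Dlg4 or Nos1 most closely were sought among 13642 genes, by the correlation over 24 libraries of deviations from the group means in log2 CPM, with no test, since they were picked as the highest. For Dlg4 these were Aldoc, an aldolase typical of astrocytes (Pearson r = 0.90, Spearman rho = 0.92), Phactr3, Dmwd, Slc25a23 and Cacna1a, a presynaptic calcium channel, with r between 0.89 and 0.90. Without the 2 libraries farthest from the Dlg4 median, saline replicate 2 and PICK1i replicate 6, r was 0.83 for Aldoc and 0.78 to 0.87 for the other 4. For Nos1 they were Erc2, a scaffold of the presynaptic active zone (r = 0.96, rho = 0.94), Grin3a, an NMDA receptor subunit, Grid1, Slc35f1 and Mgat3, with r between 0.93 and 0.94 for the last 4. Without the 6 libraries that stood apart, r was 0.93 for Erc2 and 0.78 for Aldoc over the 18 others.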

How the data were processed

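The deposited tables hold expected counts, which need not be whole, per gene and per transcript for 24 libraries. STAR, Salmon, bcl2fastq 2.20.0 and build GRCm38 are named by the submitters' processing notes, and a stranded polyA kit by the labels' protocols. Of the transcripts, 108214 of 109617 were found in GENCODE M21, whose lengths and sequences were used. No source used here gives the authors' annotation release or strand setting. Counts were rounded, genes passing filterByExpr were kept (15667, minimum count 10), and all 24 libraries entered 1 fit with TMM (edgeR 4.0.16, quasi-likelihood, Benjamini-Hochberg, threshold 0.05), which was tested on simulated data. CPM of single genes use the same scaling, while summed marker CPM use the library total alone. Level per length is each transcript's count divided by its length, summed per gene and scaled by the library total alone. Shares were compared with two-sided exact permutation tests (scipy 1.17.1). Described in the text were all 6 genes, up to 4 called genes per list and direction (otherwise the 2 with the smallest p), and the 5 genes most like Dlg4 and Nos1. Shares were tested for transcripts with at least 10% of their gene's count. All of these are named for Dlg1, Dlg4 and Nos1, and only some for Dlg2, Dlg3 and Nos1ap. The values of 1 called list gene are not reported here. The members, the lists and these choices were made with earlier results of these data known. Alternatives were RLE scaling, other filters, DESeq2 1.42.0, limma-voom (limma 3.58.1), blocks, a length covariate and left-out libraries. The count of PSD-95 partners above 0 without these libraries was added after seeing the data. Depth limits Nos1ap most, at 57 to 181 counts a library.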

Additional observations from a re-analysis of the deposited data

Results flagged for a closer look

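Of 84 groups of 8 libraries examined (the CPM of each gene, the shares of its main transcripts and the family shares, by treatment), 6 held a highest library that lay apart from the rest by more than Dixon's critical value at 95%. Chance gives about 1 such group in 20. Nos1ap stood at 24.7 CPM in saline replicate 6, against 13.4 to 18.4 CPM in the other 7 saline libraries. That library also had the highest Dlg2, Dlg3, Dlg4 and Nos1 CPM of the saline group. Its cortex and hippocampus markers (383 CPM) were the highest of the group, and its total (5727283 counts) was the lowest. It stayed in the fits without the 6 libraries. The same library had a Dlg3-202 share of the Dlg3 count of 15.1%, against 9.25% to 11.8%. The Dlg4-203 share was 12.7% in PSD-95i replicate 3, against 9.75% to 11.1% in the other PSD-95i libraries. The Nos1ap-201 share was 23.1% in PSD-95i replicate 7, against 14.9% to 18.5%. Dlg1 made up 7.18% of the family level in PSD-95i replicate 5, against 6.08% to 6.59% in the others of its group. Dlg3 made up 6.61% of it in saline replicate 3, against 5.23% to 5.87% in the other saline libraries.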

How the results depend on the processing

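PSD-95i against saline gave 0 called members, list genes, transcripts and family shares under every alternative run. Members called in PSD-95i against PICK1i were 1 (Nos1) with DESeq2 and 1 without saline replicates 2 and 3. Saline libraries enter that comparison only through the shared fit. Leaving out 1 library at a time gave 0 to 2 there (Dlg2 and Nos1) and 0 to 1 for PICK1i against saline (Dlg2). List genes called for PICK1i against saline were 6 with no filter, 1 with consecutive libraries as a random block, and 0 with the length tilt as covariate, with only the 2 groups, without saline replicates 2 and 3, without PICK1i replicates 1, 2, 5 and 6 and without all 6 libraries. Between the inhibitors they were 4 with DESeq2, 2 with limma-voom and 4 without saline replicates 2 and 3. With 1 library left out they ranged from 1 to 12 and from 0 to 10 in these 2 comparisons. Member transcripts called between the inhibitors were 2 with DESeq2 and 1 with limma-voom, and 0 to 6 with 1 library left out, as for PICK1i against saline. Isoform shares called for PSD-95i against saline were 0 without saline replicates 2 and 3 and 0 without the 6 libraries. With 1 library left out, isoform shares called ranged from 0 to 2 in each comparison and family shares called for PICK1i against saline from 0 to 1.

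Several differences changed sign, some of the larger ones of PSD-95i over PICK1i and PICK1i over saline included, with none past the threshold before or after. For PSD-95i over saline, without saline replicates 2 and 3, without the 6 libraries and with the length covariate, Dlg2 was -0.046, -0.043 and -0.043 and Nos1ap -0.037, -0.033 and -0.047. With 1 library left out they ranged from -0.015 to 0.090 and from -0.025 to 0.11. For PICK1i over saline, without PICK1i replicates 1, 2, 5 and 6, Dlg3 was 0.14, Nos1 0.055 and Nos1ap 0.0067. With the length covariate these were 0.16, 0.064 and 0.0098. Dlg3 was 0.10 without the 6 libraries and ranged from -0.066 to 0.048 with 1 left out. For PSD-95i over PICK1i, without PICK1i replicates 1, 2, 5 and 6 and without the 6 libraries, Dlg1 was -0.037 in both, Dlg4 0.026 in both and Mpp5 -0.0023 and -0.0022. With the length covariate Dlg1 was -0.072, Dlg2 -0.040, Dlg3 -0.065, Nos1ap -0.057, Kcnj10 -0.011 and Mpp5 -0.029. In percentage points, without PICK1i replicates 1, 2, 5 and 6 and without the 6 libraries, PICK1i minus saline was -0.407 and -0.708 for the Dlg4-201 share and 1.26 and 1.09 for Dlg4-204, which ranged from -0.534 to 0.231 with 1 left out. PSD-95i minus PICK1i was -0.00719 in both for Dlg4-204 and 0.281 in both for the Dlg4 family share. The Dlg4-203 share, PSD-95i minus saline, was 0.251 without saline replicates 2 and 3 and without the 6 libraries, and ranged from -0.407 to 0.247 with 1 left out. The family share of Dlg4, PICK1i minus saline, was -0.169 without the 6 libraries. The cause of these changes was not tested.

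Replicate numbers did not pair the libraries: same-numbered libraries of 2 groups had mean correlations of 0.002 to 0.03, and at most 1 of 8 correlated best with its own number. With the replicate block the fit called 0 members in all comparisons, 10 list genes for PICK1i against saline as without it, and 1127 genes in all, against 1434.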
